A study of Homo sapiens with 6 samples.

Results

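The genes described here are the HOX genes found in the authors' deposited table for the cell line K1, which was established from a human papillary thyroid carcinoma. They were chosen by name, as rows called HOXA, HOXB, HOXC or HOXD followed by a position number, and 3 of the 986 genes in the table met that rule: HOXC6, HOXC8 and HOXC9. In 3 libraries, called miR-31 KO, the cells had received an sgRNA that targets the microRNA miR-31, and they were compared with 3 control libraries of K1 cells that had received a control. Both groups were grown in DMEM with fetal bovine serum, and the labels do not say whether the KO cells were a pool or a clone, or whether the libraries of a group came from separate cultures. The p-values therefore rest on the spread among these libraries alone, and that spread may be technical. The comparison addressed which transcripts differ when miR-31 is targeted, and other differences between KO and control cells cannot be told apart from it.

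HOX genes encode transcription factors that bind DNA through a homeodomain, a helical domain encoded by a conserved stretch called the homeobox. Human HOX genes lie in 4 clusters, HOXA to HOXD, and their order along a cluster follows where along the body axis they are active in the embryo, low numbers towards the head and high numbers towards the tail. HOX proteins bind DNA together with cofactors such as PBX and MEIS proteins, retinoic acid switches many HOX genes on, and Polycomb proteins keep them silent. Adult cells, fibroblasts in particular, often keep a HOX pattern that reflects the body region they came from.

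All 3 members belonged to the HOXC cluster, and 0 members of HOXA, HOXB or HOXD were listed. GENCODE release 29 annotates 39 protein-coding HOX genes, so 7.69% of them were in the table, where 5.87% of the 16806 genes behind the authors' adjusted p-values were. The shares are near each other, but how many of the 39 HOX genes were among the 16806 is not known. They are therefore not shares of like sets, and the same limit holds for the shares of the gene lists below. The table holds only genes that passed 2 limits, an adjusted p below 0.05 and a log2 fold change of 1 or more in either direction, so listing already means that the groups differed, and the 36 HOX genes that are not listed cannot be called unchanged. HOXA6, HOXB6, HOXB8, HOXD8, HOXA9, HOXB9 and HOXD9, the paralogs that share the position numbers 6, 8 and 9, were all among those not listed.

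The homeobox sequences of HOXC6 and HOXC9 show what these members share. Each was read from the longest coding transcript of the gene in GENCODE 29 (GRCh38, plus strand) and runs over 180 bases, or 60 codons, within the last exon. The capitals mark codons 48 to 51, which encode the tryptophan, phenylalanine, glutamine and asparagine of the helix that contacts DNA and by which the homeobox was located.
HOXC6: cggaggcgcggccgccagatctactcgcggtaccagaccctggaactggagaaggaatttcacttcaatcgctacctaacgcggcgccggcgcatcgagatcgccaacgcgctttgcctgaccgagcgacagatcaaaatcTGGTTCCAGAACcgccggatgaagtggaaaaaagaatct
HOXC9: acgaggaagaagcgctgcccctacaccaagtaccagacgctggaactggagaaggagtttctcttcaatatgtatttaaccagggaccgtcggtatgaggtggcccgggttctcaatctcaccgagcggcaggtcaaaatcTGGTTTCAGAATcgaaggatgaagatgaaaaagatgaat

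These stretches lie at chr12:54029675-54029854 for HOXC6 and chr12:54002465-54002644 for HOXC9. Between them 66.7% of bases and 68.3% of the encoded residues were identical, and the longest identical run within the homeobox was 17 bases.

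HOXC9, the highest-numbered member, was present in every KO library and at or near 0 in 2 of the 3 controls. It had 25.7, 17.98 and 15.5 normalized counts in KO replicates 1, 2 and 3, against 1.06, 0.000162 and 0 in control replicates 1, 2 and 3. The groups did not overlap, and the lowest KO library was 14.6 times the highest control library. The gene rose, and the authors' deposited table gives a log2 fold change of 5.42 (adjusted p = 2.06e-08). Of the 593 genes listed as higher, whose median log2 fold change in that table was 2.14, 64 had a larger value than HOXC9.

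HOXC6, the lowest-numbered member, had 20.7, 13.7 and 9.32 normalized counts in KO replicates 1, 2 and 3, against 3.17, 1.00 and 0 in control replicates 1, 2 and 3. The groups did not overlap, but the margin was narrower than for HOXC9: the lowest KO library was 2.94 times the highest control library. HOXC6 rose, and the authors' deposited table gives a log2 fold change of 3.31 (adjusted p = 0.000343). The value in control replicate 2 equals 1 step of that column, the amount that 1 read would be worth if whole reads had been counted: 42 genes of the column had values between 0.9 and 1.1, and all 42 lay within 0.005 of their median of 1.00.

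HOXC8, which lies between the other two members by number, was listed at 0 in all 3 control libraries. In miR-31 KO replicates 1, 2 and 3 it had 12.1, 2.29 and 9.69 normalized counts, so replicate 2 was far below the other two. The gene rose (adjusted p = 0.00101 in the authors' deposited table), and no fold is given against a group listed at 0. In all, 68 genes were at 0 in every control library. A 0 is given here as listed and does not show that the transcript was absent.

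**Figure D1:**
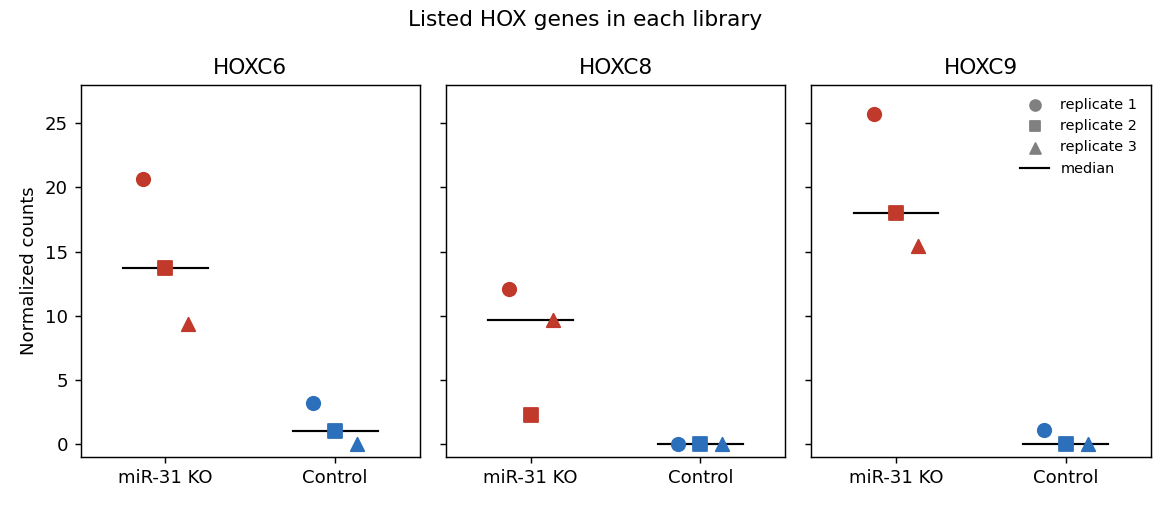
Normalized counts (linear axis) of HOXC6, HOXC8 and HOXC9 in each library, miR-31 KO left of control. Each point is 1 library, its shape gives the replicate number and the bar is the median of 3; all KO libraries lie above all controls, and HOXC8 has a low KO replicate 2 at 2.29.

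All 3 members were higher in miR-31 KO, beside 60.1% of all listed genes. The KO and control values did not overlap for any member, beside 92.6% of listed genes without overlap. Because the table was selected on this same contrast, neither count says anything particular to HOX genes. Summed over the members, the normalized counts were 58.4, 34.0 and 34.5 in KO replicates 1, 2 and 3, against 4.23, 1.00 and 0 in control replicates 1, 2 and 3. In KO replicate 1 all 3 members had their highest value, as did 36.4% of the genes listed as higher.

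Per kilobase of transcript, HOXC9 had the highest level of the members in each KO library. Its level was 13.01 ± 3.53 normalized counts per kb in miR-31 KO (SD, n = 3), against 0.699, 0.000107 and 0 in control replicates 1, 2 and 3, over the 1516 bases of its longest coding transcript. HOXC6 had 4.95 ± 1.94 per kb in miR-31 KO (SD, n = 3), against 1.08, 0.341 and 0 in control replicates 1, 2 and 3, over 2943 bases. HOXC8 had 4.24 ± 2.70 per kb in miR-31 KO (SD, n = 3) over 1889 bases and was listed at 0 in the controls. HOXC6 and HOXC8 did not differ in the KO libraries beyond their spread, and their order turned round in replicate 3, where HOXC6 had 3.17 and HOXC8 had 5.13 per kb. These are low values for this table: the mean normalized count over all 6 libraries, not divided by length, was lower in 210 genes than in HOXC9, in 172 than in HOXC6 and in 83 than in HOXC8, of 986.

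When all listed genes were fitted again with limma on log2(normalized counts + 1), with p-values adjusted over 16806 genes, 2 of the 3 members were called higher, beside 28.2% of listed genes. HOXC9 differed by 4.00 ± 0.482 on that scale (SE; adjusted p = 0.00490) and HOXC8 by 2.95 ± 0.590 (adjusted p = 0.0430). HOXC6 differed by 2.87 ± 0.613 and missed the threshold (adjusted p = 0.0581). The size of these differences depends on the pseudocount, because the controls are at or near 0. With a pseudocount of 0.1 they were 6.42 for HOXC9, 6.04 for HOXC8 and 4.29 for HOXC6. Quantile normalization and median ratio scaling over the listed genes shifted the median log2 difference of all listed genes by -0.44 and -0.69, and HOXC9 was then the 1 member called, beside 18.5% and 14.2% of listed genes called higher in those fits. The numbers of calls per setting are given in the closing section.

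**Figure D2:**
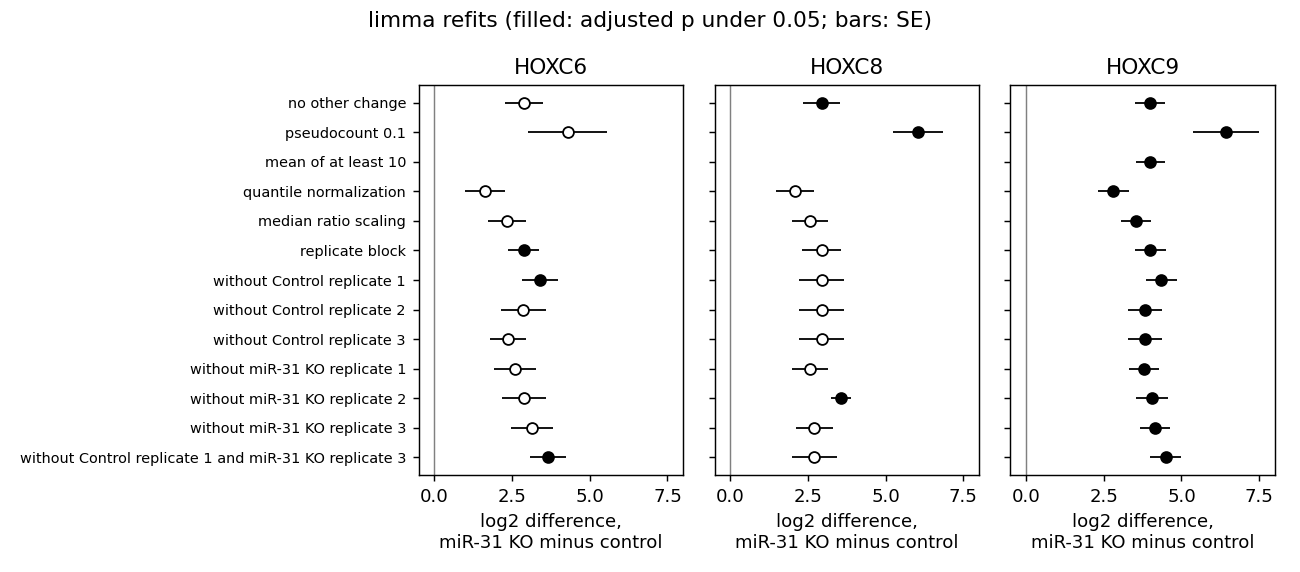
The log2 difference (miR-31 KO minus control, x axis) of each member in every limma refit (y axis), with its SE as a bar; filled points have an adjusted p under 0.05. All points lie above 0; those of HOXC9 are filled in every refit, and most of HOXC6 and HOXC8 are open.

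The 3 members are next to each other in the cluster, with no HOXC7 gene between HOXC6 and HOXC8. The HOXC cluster runs from HOXC13 to HOXC4 over 117 kb of chromosome 12 (53938765 to 54056030, GRCh38). HOXC9 (ENSG00000180806.4) spans 53994895 to 54003337 on the plus strand, and HOXC8 (ENSG00000037965.5) spans 54009106 to 54012362, with 5768 bases between them. HOXC6 (ENSG00000197757.7) spans 53990624 to 54030823 because 2 of its 4 annotated transcripts start far upstream, so its span takes in both other members. The 6 remaining HOXC genes, HOXC4, HOXC5, HOXC10, HOXC11, HOXC12 and HOXC13, were not listed, and neither was HOTAIR, the noncoding RNA on the opposite strand.

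**Figure D3:**
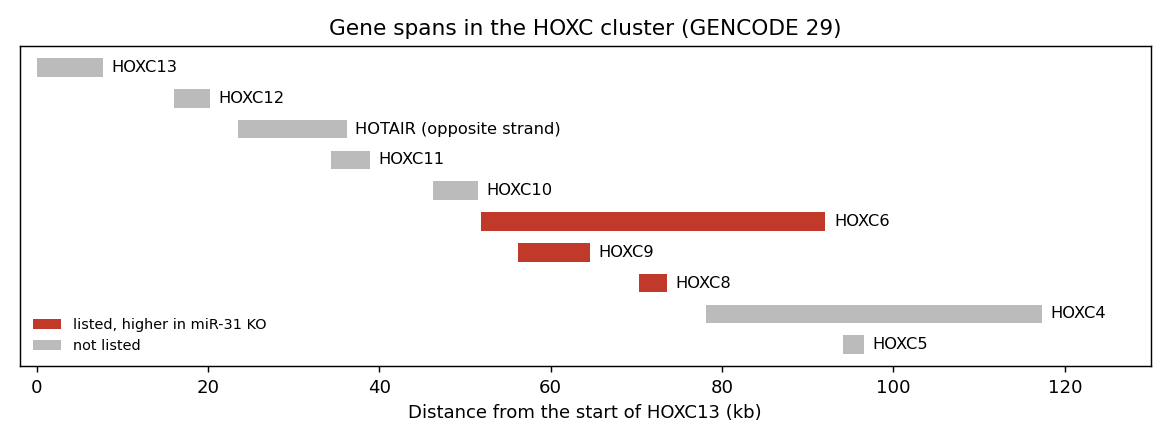
Spans of the HOXC genes and HOTAIR along the cluster, as distance in kb from the start of HOXC13; each bar is 1 gene in GENCODE 29, red where it was listed and grey where it was not. The 3 listed genes lie side by side in the middle, and the bar of HOXC6 covers those of HOXC8 and HOXC9.

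This arrangement bears on how reads were assigned, and the counting rule is not given in the sources used here. HOXC6 and HOXC9 share 73 exonic bases on the same strand, 2.06% of the exonic bases of HOXC6 and 4.35% of those of HOXC9. HOXC6 also shares 484 exonic bases (13.7%) with HOXC4 on the same strand. The exon comparison gave a further 305 bases (8.62%) shared with HOXC5. The gene spans do not bear this out, since HOXC6 ends at 92.06 kb and HOXC5 starts at 94.09 kb from the start of HOXC13. That overlap is left unresolved. HOXC-AS2, on the opposite strand, overlaps 163 exonic bases (9.71%) of HOXC9 and 73 (2.06%) of HOXC6. HOXC8 overlaps no exon of another annotated gene. The values of HOXC6 and HOXC9 are therefore less certain in this respect than that of HOXC8, and a split of reads between these genes was not tested.

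The members' 3' UTRs were searched for sites of miR-31-5p, since the study's title asks for target genes of miR-31. Its mature sequence, taken from RefSeq (GRCh38.p14, chromosome 9, minus strand), has its seed, bases 2 to 8, in capitals.
miR-31-5p: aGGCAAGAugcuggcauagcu

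The 3' UTRs of HOXC6, HOXC8 and HOXC9 held 0 matches to the seed of 7 or 8 bases in any annotated coding transcript with a 3' UTR. Their lengths were 771 and 861 bases for HOXC6, 981 for HOXC8 and 624 and 663 for HOXC9. HOXC8 held 1 shorter match, to seed bases 2 to 7 alone, shown in capitals within 30 bases at chr12:54011622-54011651 (plus strand).
HOXC8 3' UTR: tctgtctcactcCTTGCCccacacacactt

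A match is a description of the letters and not a site in use. Neither miR-31 nor its host gene was listed, so the table gives no check that miR-31 was lost.

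Among themselves the members varied together over the 6 libraries, with Pearson correlations of log2(normalized counts + 1) of 0.963 for HOXC6 with HOXC9, 0.917 for HOXC8 with HOXC9 and 0.847 for HOXC6 with HOXC8. These values carry the difference between the groups on which the table was selected. For HOXC9, 150 other listed genes were more alike than HOXC6 was, and 307 more alike than HOXC8 was. The genes most like HOXC9 were CDK5R2 (r = 0.997), PALM2 (0.996) and CXCL2 (0.996). The genes most like HOXC6 were LOC102723996 (0.997), ZNF433 (0.993) and ZNF836 (0.993). ZNF468 (0.992), ZNF229 (0.990) and MAGEA1 (0.985) were most like HOXC8; all 3 were listed at 0 in the controls and had their lowest KO value in replicate 2, as HOXC8 did.

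Of the genes known to work with or on HOX genes, the retinoic acid group was the one with listed members. Of 19 CDX and retinoic acid genes, 4 (21.1%) were listed, beside 5.87% of all genes, and all 4 were higher in miR-31 KO, beside 60.1% of all listed genes. Their median log2 fold change was 1.53 in the authors' deposited table, below the median of 2.14 of all genes listed as higher. STRA6, the membrane receptor that takes up retinol, had 809, 924 and 727 normalized counts in KO replicates 1, 2 and 3, against 283, 277 and 168 in control replicates 1, 2 and 3. It rose with a log2 fold change of 1.76 (adjusted p = 1.33e-13 in the authors' deposited table). RARB, a nuclear receptor for retinoic acid, had 137, 154 and 132 in miR-31 KO replicates 1, 2 and 3, against 58.4, 46.1 and 65.9 in the controls, a log2 fold change of 1.31 (adjusted p = 1.56e-05 in the authors' deposited table).

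ALDH1A2, an enzyme that makes retinoic acid, was listed at 0 in all controls and had 5.01, 6.10 and 3.39 normalized counts in the KO libraries (adjusted p = 0.00593 in the authors' deposited table). CRABP1, a retinoic acid binding protein, had 109, 114 and 43.3 in miR-31 KO and 46.3, 29.1 and 43.3 in control libraries; KO replicate 3 lay within the control range (adjusted p = 0.0241 in the authors' deposited table). In limma refits STRA6 was called in 10 of 13 and lost its call with median ratio scaling, without KO replicate 1 and without KO replicate 2. ALDH1A2 was called in 6 of the 12 refits that held it, RARB in 3 of 13 and CRABP1 in 0 of 13. RARB lost its call with quantile normalization, median ratio scaling and the replicate block, whichever single library was left out, and without both control replicate 1 and KO replicate 3. No member of the lists of 11 HOX cofactors, 19 Polycomb genes, 14 Trithorax and DOT1L genes, 24 noncoding RNAs of the HOX clusters and 24 genes flanking the clusters was listed, beside 5.87% of all genes. Whether this absence departs from that share was not tested.

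Homeobox genes outside the clusters were listed in both directions: of 124 on a list, 5 (4.03%) were listed, beside 5.87% of all genes, 4 as higher and 1 as lower. In limma refits NKX2-5 was called in 13 of 13, TLX2 in 1 of 13, and DLX4 and LHX6 in 0 of 12. ZHX1 was called in 9 of 13 and lost its call without control replicate 2, control replicate 3, KO replicate 1 or KO replicate 2. NKX2-5, a homeobox gene of heart development, had 87.3, 67.6 and 82.8 normalized counts in miR-31 KO, against 1.13, 1.00 and 4.94 in control libraries. It rose with a log2 fold change of 4.99 (adjusted p = 8.17e-22 in the authors' deposited table), and the lowest KO library was 13.7 times the highest control, close to the 14.6 times of HOXC9. TLX2, a homeobox gene of the enteric nervous system, had 41.2, 27.6 and 9.81 in miR-31 KO and 2.21, 3.01 and 4.93 in control libraries (adjusted p = 0.000275 in the authors' deposited table).

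In the other direction, ZHX1, a zinc finger and homeobox repressor, had 3138, 3165 and 3843 normalized counts in miR-31 KO and 6121, 7163 and 7232 in control libraries. Its log2 fold change was -1.02, with adjusted p = 9.94e-18 in the authors' deposited table. DLX4 and LHX6 were the remaining higher genes, at low levels of at most 12.2 and 24.4 normalized counts. The highest value of LHX6 was that of KO replicate 3 alone, with 3.09 and 2.19 in KO replicates 1 and 2. The thyroid homeobox genes NKX2-1 and HHEX were not listed.

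**Figure D4:**
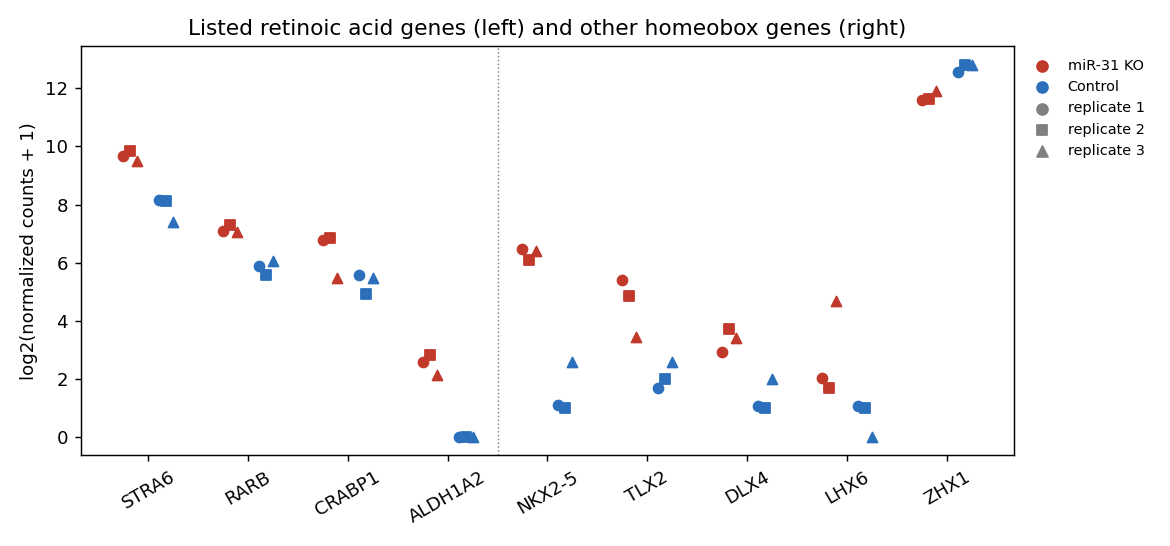
log2(normalized counts + 1) in each library for the 4 listed retinoic acid genes (left of the dotted line) and 5 listed homeobox genes outside the clusters (right), miR-31 KO left of control within each gene. Each point is 1 library; groups overlap for CRABP1 alone, and ZHX1 is the 1 gene lower in KO.

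Some markers of cell types were also listed, in both directions, and their part in these results was not tested. These counts stand beside 5.87% of all genes listed and, of the listed genes, 60.1% higher and 39.9% lower. Of 17 thyroid markers 3 were listed (SLC26A4, DUOX2 and DUOXA1), all lower, with a summed level of 32.7 to 38.2 normalized counts in KO and 100.4 to 163 in control libraries. TG, PAX8 and NKX2-1 were not listed, so the table could not check the thyroid identity of the line. Of 8 epithelial markers 3 were listed, all lower, with sums of 466 to 665 in KO and 1168 to 1891 in control libraries. Of 7 fibroblast markers 2 were listed, LUM and PDGFRA, with sums of 26.7 to 42.5 in KO and 2.01 to 8.49 in control libraries, LUM at 0 in all controls. Of 7 leukocyte markers 2 were listed, with sums of 21.9 to 97.8 in KO and 5.62 to 20.03 in control libraries, CD3D at 0 in all controls. Most of the highest sum was ITGAM in KO replicate 3, with 92.6, and the groups of ITGAM overlapped: it had 17.9 and 22.4 in the other KO libraries, against up to 20.03 in control libraries. Of 7 endothelial markers 2 were higher (KDR and TIE1) and 1 lower (ERG), with sums of 4482 to 6158 in KO and 1386 to 2232 in control libraries. TIE1 was the largest part of each sum, with 5636, 5425 and 3853 in KO and 1587, 675 and 725 in control libraries. ERG had a mean of 134 in KO and 474 in control libraries, so the sums do not describe each marker. In bulk RNA a change in the share of some cells and a change in RNA per cell cannot be told apart.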

How the data were processed

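RNA was sequenced from 3 miR-31 KO and 3 control libraries, with groups and replicate numbers taken from the titles, although the series text says duplicate. The submitters' processing notes name HISAT, Bowtie2 and RSEM, and both hg38 and hg19, without saying what each was used for. How libraries were normalized and genes tested is not given in the sources used here. The authors' deposited signal columns hold normalized read counts per gene, which are not whole numbers. The authors deposited log2 fold changes (miR-31 KO over control) and p-values with adjusted p-values, which are the main result because the 986 genes were already selected. Summed over these genes the columns held 655191 to 943360 normalized counts in miR-31 KO and 545354 to 617681 in control libraries; total depth is unknown, so no counting interval is given.

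Alternatives were fits with limma 3.58.1 under R 4.3.3 (trended eBayes, pseudocount 1) to all 986 genes, with Benjamini-Hochberg adjustment over 16806 genes, the number implied by the deposited p-values. The step was tested on simulated data. These fits take their spread from selected genes. The deviations of KO and control libraries with the same number from their group means correlated at 0.202, -0.125 and 0.145 over genes, so the numbers were not treated as pairs. Gene models are GENCODE 29 on GRCh38, which may not be the authors' annotation. Named genes are all members, up to 4 listed genes of each list by adjusted p, and the 3 genes most like each member. LHX6, GPR84 and NCKAP1L are named beyond that rule. Some genes of the lists and 1 homeobox sequence are not reported here. The members and gene lists were chosen with earlier results of these data known. Other steps used Biopython 1.88 and pandas 2.3.3 in Python 3.11.15.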

Additional observations from a re-analysis of the deposited data

How the results depend on the processing

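All 3 HOX members were higher and 0 lower in the authors' deposited table, also where an adjusted p under 0.01 or a log2 fold change of at least 2 was asked for. The limma refit called 2 higher, as it did with a pseudocount of 0.1 and with the replicate block, where HOXC6 passed (adjusted p = 0.0398) and HOXC8 did not (0.0793). The call fell to 1 member, HOXC9, with quantile normalization (1), with median ratio scaling (1) and with a mean of at least 10 (1), a filter that HOXC6 and HOXC8 did not pass; of all genes fitted, 18.5%, 14.2% and 27.1% were called higher there, against 28.2% in the refit with no other change, 24.2% with a pseudocount of 0.1 and 25.8% with the replicate block. Leaving out 1 library gave between 1 and 2 members: 1 without control replicate 2, control replicate 3, KO replicate 1 or KO replicate 3, and 2 without control replicate 1 (HOXC6 and HOXC9) or KO replicate 2 (HOXC8 and HOXC9), beside 9.63% to 26.9% of listed genes called higher. Leaving out both control replicate 1 and KO replicate 3, a choice made after the data were seen, gave 2, HOXC6 and HOXC9, beside 30.8%. HOXC9 kept its call in all 15 alternatives, with refit adjusted p-values of 0.00490 to 0.0435. HOXC6 and HOXC8 each kept their call in 5 of 14. These counts include the stricter limits on adjusted p and fold change, which reuse the deposited values and are not new fits. HOXC9 passed the filter on the mean only through its KO values (mean 19.7 in KO, 0.353 in control libraries), so that fit is no separate support. No sign reversed, and 0 members were called lower in any setting. The cause of the lost calls was not tested. With the union of exons in place of the longest transcript, each level per kb moved by less than 1 SD. The 4 retinoic acid genes and 5 other homeobox genes kept their signs in every refit that held them, fits where 9.63% to 30.8% of genes were called higher. Of the retinoic acid genes 0 to 3 were called, and of the other homeobox genes 1 to 2 as higher and 0 to 1 as lower. Total depth is unknown, and whether it limits these low values was not tested.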

Other observations

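Outside the HOXC cluster, the nearest listed genes of chromosome 12 were GPR84, a receptor for medium-chain fatty acids of myeloid cells, and NCKAP1L, a regulator of the actin skeleton in blood cells, both singled out after their positions and values were seen. They lie 306415 and 441681 bases beyond HOXC4 (GRCh38) and were the 2 other listed genes within 1 Mb of the cluster. GPR84 had 396, 489 and 95.6 normalized counts in KO replicates 1, 2 and 3, against 112, 32.1 and 29.4 in control replicates 1, 2 and 3, so the groups overlapped. NCKAP1L had 77.3, 73.2 and 63.3 in miR-31 KO, against 26.5, 4.01 and 5.86 in control libraries, with no overlap. Both were listed as higher, as were 25 of the 43 listed genes placed on chromosome 12, the 3 HOXC genes included. The next listed gene on the other side of the cluster, the keratin gene KRT7, lies 1686579 bases away and was lower, with 50.8, 46.8 and 86.2 in miR-31 KO and 120.4, 183 and 150.4 in control libraries.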
